A study of Homo sapiens with 4 samples.

Results

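The genes described here are ligands and receptors of axon guidance, read in a human glioblastoma line. They were chosen by symbol alone: the ephrins and Eph receptors, semaphorins of classes 3 to 7 and plexins, SLITs and ROBOs, and netrins and UNC5 receptors. RefSeq holds 66 human genes of these names, and 65 of the 19775 genes read by a probe set for 1 gene were members, 35 of them ligands and 30 receptors. EPHB2 had no such probe set and was not analysed here. U87TR-Da is a derivative of the glioblastoma line U87MG in which doxycycline switches on DACH1, a nuclear repressor of transcription. The 4 groups, with 1 array each, were DACH1-induced and DACH1-silenced cells in Neurobasal, a serum-free medium that received the supplements N-2 and B-27 and the growth factors EGF and bFGF, and DACH1-induced and DACH1-silenced cells in DMEM with 10% FBS. A doxycycline dose of 1 µg/mL over 72 h is stated for all 4 samples, silenced ones included, so how the silenced cells were handled cannot be read from the labels. All 4 carry the same line name, and the labels mention neither repeat cultures nor a second clone.

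Axon guidance cues are secreted or membrane-bound proteins that steer growing axons and migrating cells by attraction or repulsion. Ephrins are cell-surface ligands of Eph receptor tyrosine kinases, and signalling can run into both cells of a contact. Semaphorins act through plexins, with neuropilins as co-receptors for most class 3 members, SLITs act through ROBO receptors, and netrins act through DCC, neogenin and UNC5 receptors. The same molecules are known in gliomas and vessels, where they act on adhesion, migration and angiogenesis.

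The arrays report a MAS5 signal, an intensity on a linear scale, and with 4 arrays in all the precision is limited by their number. The median signal was 17.1 on the induced and 19.3 on the silenced array labelled serum-free, against 15.7 on the induced and 16.5 on the silenced array labelled serum. A floor at the 40th percentile of signals, 10.9, was applied before log2. DACH1 itself read 875.1 with DACH1 induced and 32.5 with DACH1 silenced on the arrays labelled serum-free, a 26.9-fold difference. On the arrays labelled serum it read 4431 with DACH1 induced and 126.0 with DACH1 silenced, a 35.2-fold difference. Its other 2 probe sets read at most 24.7 on any array and did not show this. Of the markers of the U87 line, VIM, CD44 and ANXA1 read at least 2898 on every array, while GFAP, S100B and SOX2, markers of astrocytes and neural progenitors, stayed under the median signal on all 4 arrays. The other markers of that list were dimmer than VIM, CD44 and ANXA1, with NES between 19.6 and 35.8 and CHI3L1 between 21.4 and 103.1. The medium labels were checked with 3 gene lists. Genes of the serum, SRF and BMP response had 11 of 13 members higher and 0 lower on the arrays labelled serum-free by limma, and genes of FGF and EGF feedback had 0 higher and 9 of 13 lower, although that medium contains both factors. Genes of sterol synthesis and uptake had 1 of 9 higher and 0 lower, but most lay lower without a call. Their median log2 difference, label serum-free minus label serum, was -0.50. The thrombospondin gene THBS1 read 230.6 and 656.9 on the arrays labelled serum-free, against 18.5 and 15.2 on those labelled serum, and the feedback phosphatase gene DUSP6 read 38.1 and 45.3 against 1012 and 2383, each with the induced array first. The serum response and feedback readings go against the medium labels, so the media are called by their labels throughout, and no direction below is tied to the presence of serum itself. In RNA from whole cultures, fewer cells of a type and less RNA per cell cannot be told apart.

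Promoter letters are printed for 4 members that the results turn on: SEMA3C and SLIT2, the 2 members with the largest measured DACH1 differences on bright probe sets, and EPHA3 and PLXNB3, the 2 with the largest called difference between media. Each is the 250 bases before the gene's start from RefSeq on GRCh38.p14, 5′ to 3′, at chr7:80922390-80922639 (minus strand), chr4:20251655-20251904 (plus strand), chr3:89107371-89107620 (plus strand) and chrX:153763999-153764248 (plus strand). Capitals mark matches on either strand to 6 searched motifs: TGANTCA (AP-1), GGAATG (TEAD), ACGTG (the core of hypoxia response elements), GGGCGG (GC box), the NF-kB consensus and the CArG box of SRF.
SEMA3C: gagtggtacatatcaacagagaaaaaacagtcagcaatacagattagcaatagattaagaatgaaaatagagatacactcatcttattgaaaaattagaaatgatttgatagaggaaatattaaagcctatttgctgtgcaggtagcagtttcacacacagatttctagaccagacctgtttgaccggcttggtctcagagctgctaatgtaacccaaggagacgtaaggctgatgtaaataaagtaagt
SLIT2: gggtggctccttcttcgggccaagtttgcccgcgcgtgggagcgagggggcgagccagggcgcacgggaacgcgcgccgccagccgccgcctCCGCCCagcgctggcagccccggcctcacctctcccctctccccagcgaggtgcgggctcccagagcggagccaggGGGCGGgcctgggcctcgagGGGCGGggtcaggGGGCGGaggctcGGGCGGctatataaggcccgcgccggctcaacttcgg
EPHA3: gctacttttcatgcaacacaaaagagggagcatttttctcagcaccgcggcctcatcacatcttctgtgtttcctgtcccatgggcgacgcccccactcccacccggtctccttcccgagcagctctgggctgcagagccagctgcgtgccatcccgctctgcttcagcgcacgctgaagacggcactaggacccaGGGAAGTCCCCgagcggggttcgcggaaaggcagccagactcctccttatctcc
PLXNB3: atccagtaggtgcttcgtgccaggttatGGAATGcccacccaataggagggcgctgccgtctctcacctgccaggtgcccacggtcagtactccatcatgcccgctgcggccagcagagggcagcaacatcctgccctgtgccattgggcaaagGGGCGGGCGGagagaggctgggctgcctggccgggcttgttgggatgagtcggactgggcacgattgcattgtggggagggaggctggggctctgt
The 4 windows differ in their letters. SEMA3C had no match to the 6 motifs and 36.4% C and G, while SLIT2 held 5 GC boxes and 77.2% C and G. EPHA3 held 2 overlapping matches to the NF-kB consensus, 1 on each strand, with 61.2% C and G. PLXNB3 held 2 overlapping GC boxes and 1 TEAD match, with 64.4% C and G. Of 56 members with a promoter in the table, 41 held a GC box, against 42.6% of 35116 promoters. Of the 9 members called higher below, 7 held a GC box, as did both of the called lower members with a promoter in the table. The AP-1 letters stood in 1 of 56 members and in 6.57% of all promoters, the TEAD letters in 3 and 11.9%, the hypoxia core in 7 and 18.5%, the NF-kB consensus in 6 and 9.96%, and the CArG box in 0 and 1.16%. Motifs can overlap, and a match is a description of letters only.

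Of the 65 members, 25 were too dim for the fit across genes, which required 2 of 4 arrays at or above the median of all signals, 17.2. None of these 25 read above 30.0 on any array, and 12 of them lay at or under the floor on all 4. They included 13 ligands, among them EFNA1, SEMA3B, SEMA3D and SEMA3G, and 12 receptors, among them EPHA5, EPHA7, ROBO2 and UNC5A. The other 40 members are shown in the plot of signals by family, and 24 of the 65 reached a signal of 50 on at least 1 array.

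**Figure D1:**
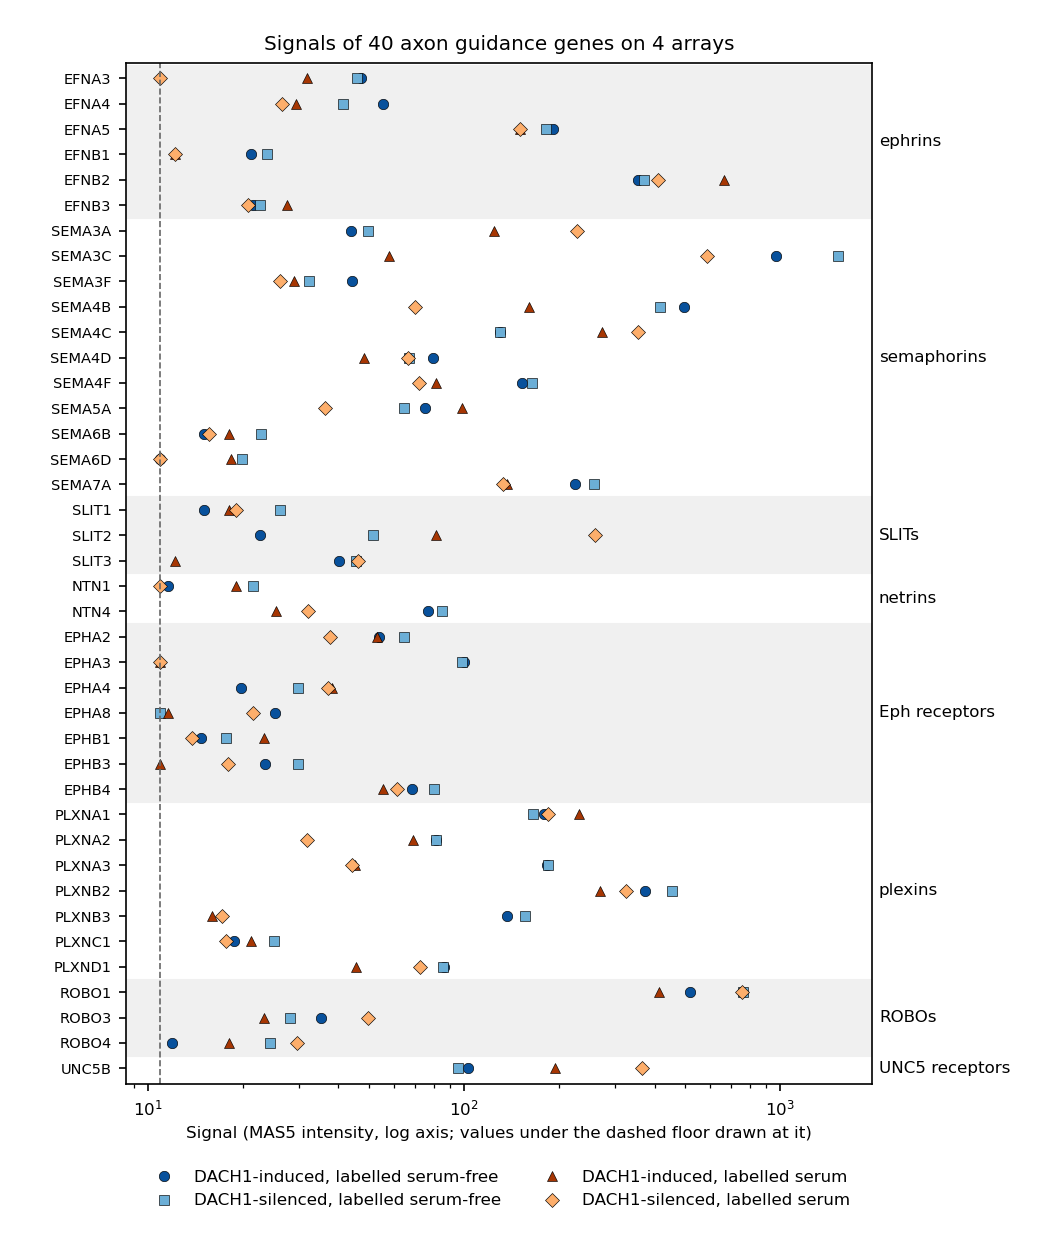
Signals of the 40 axon guidance genes of the fit, in rows by family, as MAS5 intensity on a log axis. Each marker is 1 array, in blue for the label serum-free and in orange for the label serum, and values under the floor of 10.9 are drawn at the dashed line. Blue and orange markers stand apart for EPHA3, PLXNA3, PLXNB3 and SEMA4B, and all 4 markers spread for SLIT2 and SEMA3C.

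The first comparison was between the media. The plexins PLXNA3 and PLXNB3, the Eph receptors EPHA3 and EPHB3, the semaphorins SEMA4B, SEMA4F and SEMA7A, and NTN4 and EFNB1 were higher on the arrays labelled serum-free. The ligands SEMA3A, SEMA4C and SLIT2 and the receptor UNC5B were lower. The limma fit of log2 signal, with medium and DACH1 state as terms, called 9 of 40 members higher on the arrays labelled serum-free at an adjusted p of 0.05, or 22.5% of those in the fit, against 15.4% of all genes. It called 4 lower, or 10.0%, against 12.7% of all genes. At an unadjusted p under 0.05 there were 16 of 40 members, against 45.7% of all genes. These shares lie near those of all genes, and nothing particular to the members is read from them. The median log2 difference of the 40 members was 0.33, beside 0.02 for all 12103 genes. The members entered the fit by their signals, so a member high in 1 medium alone could enter only through that medium. This was so for 3 of the 13 called: EPHA3, PLXNB3 and EFNB1.

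The error in this fit is what is left after both terms, with 1 residual degree of freedom for each gene. With no repeated condition, a p-value here reflects how these 4 arrays scatter around the fit. For each gene that scatter is the disagreement of the medium difference between induced and silenced cells, drawn by limma toward a spread shared by all genes. It may be technical or a real dependence on the DACH1 state, and these cannot be told apart. Without the filter on low signals limma called 0 of 65 members between media, and 16 had an unadjusted p under 0.05. The adjusted p of the 13 called members in that limma fit lay between 0.109 and 0.340.

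**Figure D2:**
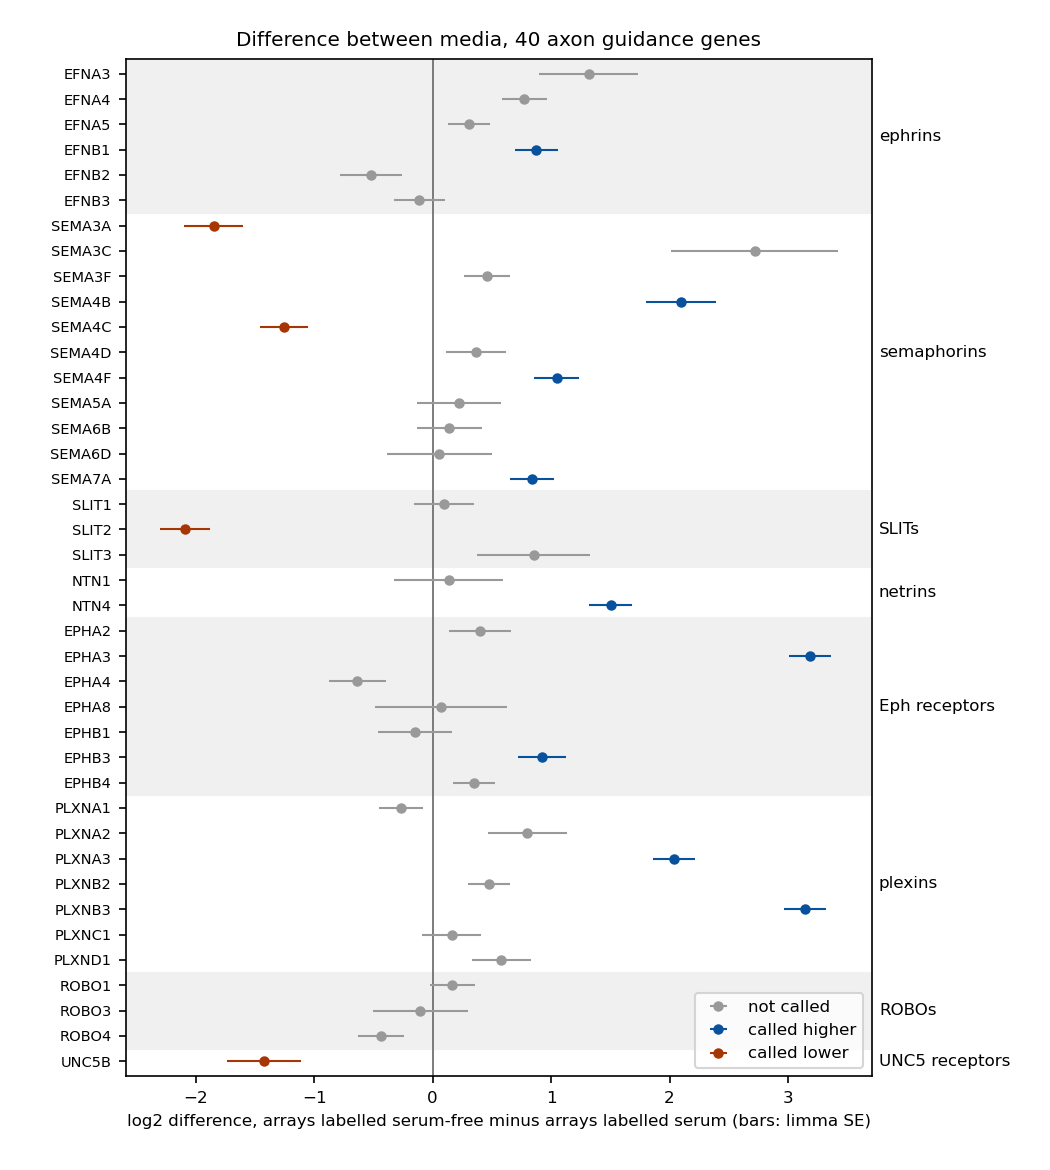
Difference in log2 signal between arrays labelled serum-free and arrays labelled serum for 40 axon guidance genes, by family, with the limma SE as bars. Called genes are in colour: 9 lie right of 0 and 4 left of it, and the longest bar is that of SEMA3C at 0.70.

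Among the ligands, semaphorins were 11 of the 22 in the fit and held 5 of the 8 calls. Of the 11, 3 were higher and 2 lower, beside 15.4% and 12.7% of all genes. SEMA4B, a transmembrane class 4 semaphorin, read 496.3 on the induced and 415.6 on the silenced array labelled serum-free, against 160.3 on the induced and 70.1 on the silenced array labelled serum. Both readings labelled serum-free lay above both labelled serum. The fitted difference was 4.28-fold (log2 2.10, SE 0.30, limma adjusted p 0.0235), with 3.10-fold in induced and 5.93-fold in silenced cells. SEMA4F, of the same class, read 151.9 and 164.2 on the arrays labelled serum-free, against 81.3 and 71.8 on those labelled serum, with the induced array first in each pair. It was 2.07-fold higher (limma adjusted p 0.0328), and its other 2 measured probe sets lay in the same direction. Without the floor its limma adjusted p was 0.0504, in a range of 0.00876 to 0.185 over all alternatives run. SEMA7A, a semaphorin anchored by glycosylphosphatidylinositol that signals through integrins, read 224.5 and 256.9 against 136.2 and 132.4. It was 1.79-fold higher (limma adjusted p 0.0447), and a dimmer probe set gave opposite signs in the 2 DACH1 states, with log2 differences of -0.95 in induced and 0.90 in silenced cells. With the mean of its probe sets the limma adjusted p of SEMA7A was 0.356, in a range of 0.0142 to 0.356 over all alternatives run.

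SEMA3A, a secreted repellent of axons that binds neuropilin 1, was lower. It read 43.9 on the induced and 49.5 on the silenced array labelled serum-free, against 124.5 on the induced and 226.8 on the silenced array labelled serum. The groups did not overlap, and the fitted log2 difference was -1.85 (SE 0.25, limma adjusted p 0.0225), a 3.60-fold lower signal. Both dimmer probe sets of SEMA3A, which reached 53.2 at most, also lay lower on the arrays labelled serum-free in both DACH1 states. SEMA4C, a transmembrane ligand of plexin B2, read 129.8 and 130.1 on the arrays labelled serum-free, against 272.1 and 353.8 on those labelled serum, the induced array first. It was 2.39-fold lower (limma adjusted p 0.0277). Its second probe set did not share this, with log2 differences of 0.50 in induced and -0.44 in silenced cells, and with the mean of the probe sets the limma adjusted p was 0.112, in a range of 0.00668 to 0.193 over all alternatives run.

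SEMA3C, a secreted class 3 semaphorin, had the widest range in fold of any member in the fit once signals were floored, and was not called. The range of EPHA3 below is then only a lower bound. It read 967.7 on the induced and 1518 on the silenced array labelled serum-free, against 57.9 on the induced and 586.3 on the silenced array labelled serum. Both values labelled serum-free lay above both labelled serum, 16.7-fold in induced and 2.59-fold in silenced cells. The fitted log2 difference was 2.72 with an SE of 0.70, and the adjusted p of limma was 0.0584. Its second probe set lay the same way, at 148.2 and 378.6 on the arrays labelled serum-free against 14.4 and 168.5 on those labelled serum, the induced array first. Of the other semaphorins in the fit, SEMA3F read 44.1 and 32.4 against 29.0 and 26.1, SEMA4D, known from lymphocytes and as a ligand of plexin B1, read 79.8 and 67.0 against 48.1 and 66.6, and neither was called.

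**Figure D3:**
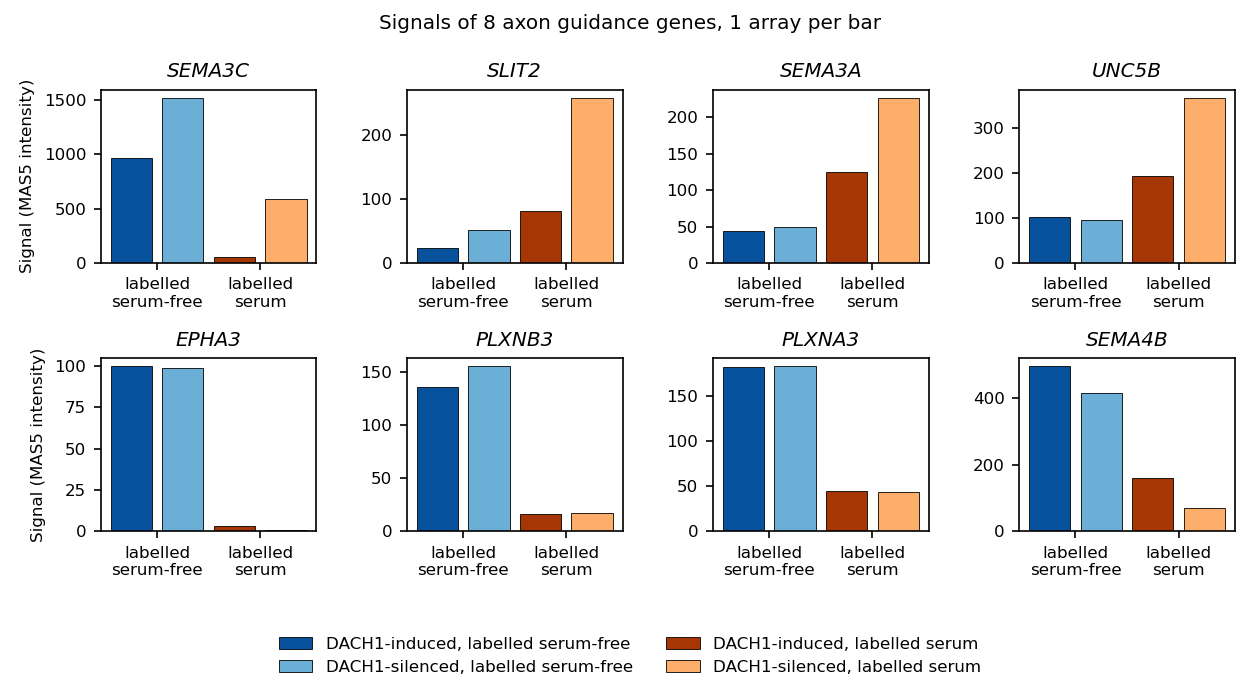
MAS5 signals of 8 axon guidance genes, 1 array per bar, on axes that start at 0. The top row holds SEMA3C, SLIT2, SEMA3A and UNC5B, whose DACH1-induced bar labelled serum is under the silenced bar beside it; the bottom row holds EPHA3, PLXNB3, PLXNA3 and SEMA4B, whose bars labelled serum-free stand above both bars labelled serum.

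SLIT2, a secreted ligand of ROBO receptors, fell. It read 22.6 on the induced and 51.6 on the silenced array labelled serum-free, against 81.7 on the induced and 258.6 on the silenced array labelled serum. The readings did not overlap between media, and the fitted log2 difference was -2.09 (SE 0.21, limma adjusted p 0.0188), or 4.26-fold lower. Its other 2 measured probe sets lay in the same direction. SLIT3 read 40.3 and 45.4 against 12.2 and 46.0, with the induced array first, so it was 3.30-fold higher in induced cells and level in silenced cells, and it was not called (limma adjusted p 0.238). A second probe set of SLIT3 was not level in silenced cells. It read 22.7 and 34.2 against 13.3 and 19.7, with log2 differences of 0.77 in induced and 0.80 in silenced cells. SLIT1 read between 15.0 and 26.1 on the 4 arrays and was not called.

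NTN4, a laminin-like netrin of basement membranes, rose. It read 76.9 and 85.3 on the arrays labelled serum-free, against 25.4 and 32.1 on those labelled serum, the induced array first, which was 2.84-fold higher (limma adjusted p 0.0206). NTN1, an axon attractant, read between 6.4 and 21.5 and was not called. Of 6 ephrins in the fit only EFNB1, a transmembrane ligand of EphB receptors, was called. It read 21.1 and 23.7 against 12.2 and 12.2, a 1.83-fold higher signal near the floor (limma adjusted p 0.0397), and it was no longer called with quantile normalization (adjusted p 0.0583; 0.0287 to 0.156 over all alternatives run). EFNB2, the ligand of EPHB4 that marks arteries, read 355.3 and 370.1 on the arrays labelled serum-free against 662.1 and 408.9 on those labelled serum (limma adjusted p 0.199). A second probe set of EFNB2 lay the other way, at 138.9 and 122.6 against 113.1 and 50.4. EFNA5 read between 149.9 and 190.6 on the 4 arrays. Another probe set of EFNA5 lay further apart, at 123.7 and 118.3 labelled serum-free against 79.5 and 56.8 labelled serum, induced first. A dimmer one read 70.9 and 65.2 against 58.1 and 49.4. EFNA3 read 47.2 and 45.7 against 31.9 and 2.7, induced first, with an adjusted p of 0.0871 in limma, and EFNA4 read 55.4 and 41.3 against 29.4 and 26.6, with an adjusted p of 0.0534.

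Among the receptors, EPHA3, a receptor of A-type ephrins known from glioblastoma, was the member with the largest called difference. It read 99.8 on the induced and 98.7 on the silenced array labelled serum-free, against 3.5 on the induced and 0.7 on the silenced array labelled serum. Both arrays labelled serum lay under the floor, so it was at least 9.16-fold higher in induced and at least 9.05-fold higher in silenced cells (limma adjusted p 0.0167). The floor set both of those arrays to the same value, which takes their disagreement out of the error of the fit. Without the floor the limma adjusted p of EPHA3 was 0.0361, in a range of 0.00379 to 0.109 over the alternatives whose fit held it. A second probe set read 19.6 and 36.1 against 4.2 and 6.5, and the third stayed under the floor on all arrays. EPHB3, a receptor of B-type ephrins, read 23.5 and 29.8 against 5.7 and 17.9, induced first, and was called at an adjusted p of 0.0428 in limma. That call was lost with quantile normalization (adjusted p 0.0647 in limma; 0.0354 to 0.229 over all alternatives run). EPHA2, often described in glioma, read 53.6 and 64.7 against 53.1 and 37.5 and was not called, nor were EPHA4, EPHA8, EPHB1 and EPHB4. EPHA4 read 19.7 and 29.7 against 38.1 and 37.0, and another probe set of it lay further apart, at 14.4 and 9.7 against 44.3 and 34.0.

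Plexins, the semaphorin receptors, had 2 of 7 in the fit called, both higher. PLXNB3 read 136.3 on the induced and 155.4 on the silenced array labelled serum-free, against 15.9 on the induced and 17.1 on the silenced array labelled serum. It was 8.83-fold higher (log2 3.14, SE 0.18, limma adjusted p 0.0167), with 8.57-fold in induced and 9.09-fold in silenced cells, and it had 1 probe set. PLXNA3, a class A plexin that pairs with neuropilins, read 183.0 and 183.5 against 45.3 and 44.1, the induced array first. It was 4.10-fold higher (log2 2.04, SE 0.18, limma adjusted p 0.0170). A second probe set of PLXNA3 read 165.2 and 179.4 against 46.4 and 42.7, close to the first. Both genes lie on chromosome X. PLXNB2, the receptor of SEMA4C, read 374.2 and 453.4 against 269.2 and 325.3, and PLXNA1 read 178.7 and 164.7 against 231.3 and 183.5, and neither was called. The dimmer probe sets of PLXNA1 did not lie lower labelled serum-free. They read 31.8 and 35.6 against 13.2 and 15.5, and 60.2 and 95.1 against 60.2 and 54.8. PLXND1, a vascular plexin that binds SEMA3E, read 86.1 and 85.6 against 45.4 and 72.6 and was not called (limma adjusted p 0.152).

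Of the ROBO receptors 0 of 3 in the fit were called, and UNC5B was the 1 UNC5 receptor in the fit. ROBO1, a SLIT receptor, read 517.4 and 759.8 on the arrays labelled serum-free, against 413.2 and 754.1 on those labelled serum, induced first, and was not called for medium (limma adjusted p 0.547). UNC5B, a netrin receptor of endothelium that is also linked to survival, was lower, at 102.5 and 95.8 against 193.2 and 365.8, the induced array first. Its log2 difference was -1.42 (SE 0.31, limma adjusted p 0.0435), with -0.91 in induced and -1.93 in silenced cells, and its other 2 measured probe sets lay in the same direction. Without the floor its limma adjusted p was 0.0675, in a range of 0.0150 to 0.340 over all alternatives run. The other UNC5 genes were outside the fit, at 30.0 or lower on every array.

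Where a called member had other probe sets that reached the median signal on 2 arrays, most of those lay the same way. There were 11 such probe sets for 8 of the 13 called members, and 9 of the 11 shared the direction of the brightest, 6 of them at 2-fold or more. The 2 exceptions belonged to SEMA4C and SEMA7A.

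**Figure D4:**
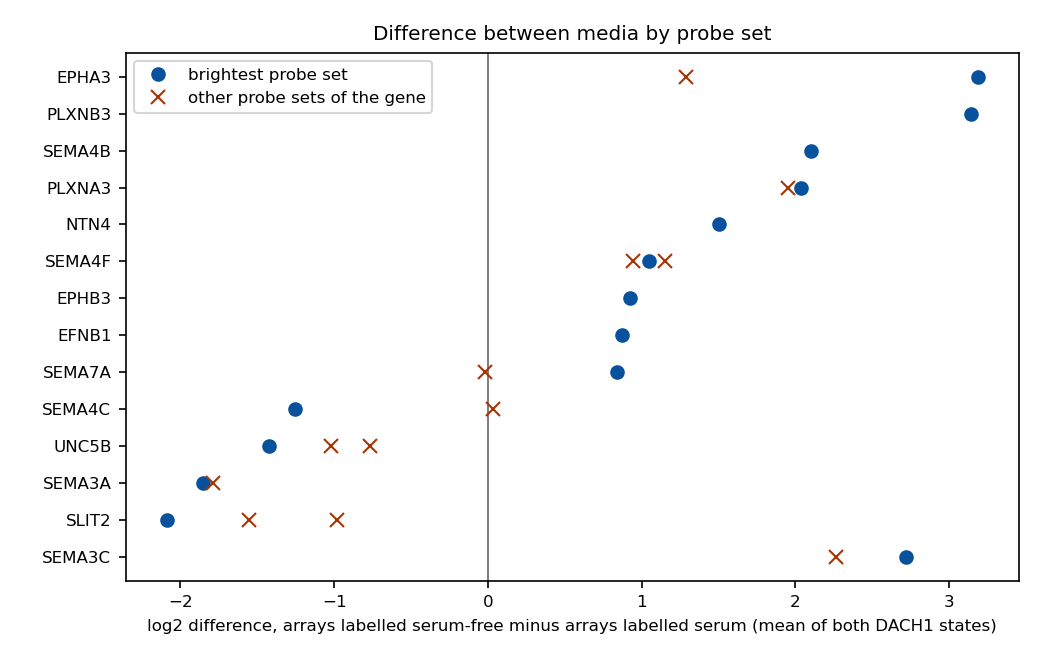
Difference in log2 signal between arrays labelled serum-free and arrays labelled serum, averaged over both DACH1 states, for each probe set of the 13 called members and SEMA3C. Circles are the brightest probe set and crosses the others that reached the median signal on 2 arrays; the crosses of SEMA4C and SEMA7A lie near 0.

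Counted at 2-fold without a test, 13 of 44 members differed between the media in induced cells, against 24.1% of all genes compared. In silenced cells the count was again 13 of 44, against 27.5%. The 9 members past 2-fold in both DACH1 states were EPHA3, NTN4, PLXNA3, PLXNB3, SEMA3A, SEMA3C, SEMA4B, SEMA4C and SLIT2. The share of all genes past 2-fold in both states was not counted, so nothing particular to the members is read from this number. EPHA8, EPHB3, SLIT3 and UNC5D passed in induced cells alone, and EFNA3, PLXNA2, SEMA4F and UNC5B in silenced cells alone. Whether the medium difference depended on the DACH1 state was not tested, since each condition had 1 array.

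Genes that work with these ligands and receptors were counted from 2 further lists. Of the co-receptors and other guidance cues, 14 of 27 were in the fit, with 1 higher and 2 lower, beside 15.4% and 12.7% of all genes. NRP2, a neuropilin that binds SEMA3C and SEMA3F, read 407.4 and 381.8 on the arrays labelled serum-free, against 1964 and 1741 on those labelled serum, the induced array first, or 4.69-fold lower (limma adjusted p 0.0170). NRP1, the neuropilin that binds SEMA3A, read 1325 and 1250 against 1801 and 2316 and was not called (limma adjusted p 0.0858). NTNG1, a membrane-anchored netrin relative, was 4.54-fold higher (limma adjusted p 0.0188), and its relative NTNG2 was 2.15-fold lower (adjusted p 0.0286) from signals of at most 24.6. The netrin receptor gene NEO1 read 93.3 and 77.6 against 143.5 and 89.7, and DCC stayed under the floor on all 4 arrays. Of the intracellular effectors, 49 of 56 were in the fit, with 8 higher and 4 lower, beside the same 15.4% and 12.7%. The 4 largest of these differences were all increases. DPYSL4 and DPYSL2, cytosolic mediators of semaphorin signalling, rose 3.27-fold and 3.02-fold (limma adjusted p 0.0225 and 0.0198). FARP1, an exchange factor linked to plexins, rose 3.13-fold (adjusted p 0.0225), and MAGED1, a partner of UNC5 receptors, rose 2.95-fold (adjusted p 0.0201).

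A few markers of other cell types were called between media, and none of the neuronal ones. Outside neurons the sums below differ mainly through single genes, given with the induced array first. KDR read 23.1 and 26.7 labelled serum-free against 127.8 and 72.1 labelled serum. CSF1R read 47.9 and 72.2 against 21.9 and 19.3, and OLIG2 read 12.3 and 12.2 against 79.9 and 58.4. The 5 endothelial markers, of which KDR fell and TEK rose by limma, summed to 103.6 and 109.3 on the arrays labelled serum-free, against 185.3 and 126.4 on those labelled serum, the induced array first. The 4 named markers of microglia and macrophages summed to 67.5 and 103.4 against 45.6 and 37.0, with CSF1R called higher and PTPRC at 11.1 or lower on all arrays. The 3 named oligodendrocyte markers summed to 42.6 and 38.9 against 104.0 and 93.8, with OLIG2 called lower. The 5 neuronal markers summed to 32.3 and 34.7 against 31.9 and 48.8, with none called and RBFOX3 at 5.6 or lower on all arrays. The part of these markers in the results above was not tested.

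The second comparison was DACH1-induced against DACH1-silenced cells. On the arrays labelled serum, SEMA3C, SLIT2 and SLIT3 were lower with DACH1 induced, and SEMA5A, SEMA4B and PLXNA2 were higher. On the arrays labelled serum-free, SLIT2 was the only member past 2-fold with a signal of 50 or more. No member was called by limma for DACH1: 0 of 40 passed an adjusted p of 0.05, as did 0.0% of all 12103 genes. At an unadjusted p under 0.05 there were 4 of 40 members, against 4.83% of all genes.

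These 4 were SLIT2, SEMA3C, ROBO1 and ROBO4. SLIT2 had a log2 difference of -1.43 (SE 0.21) in the fit, SEMA3C -1.99 (SE 0.70), ROBO1 -0.71 (SE 0.19) and ROBO4 -0.87 (SE 0.19), each with an adjusted p of 0.931 in limma. All 4 were lower with DACH1 induced in both media, that is in 2 of 2 pairs. They were picked by a fit whose error is the disagreement of those pairs, so this is no separate support.

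SLIT2 was 3.17-fold lower with DACH1 induced on the arrays labelled serum (81.7 against 258.6) and 2.28-fold lower on the arrays labelled serum-free (22.6 against 51.6). It was the only member past 2-fold in the same direction in both media, and labelled serum-free it was under 2-fold with the floor as a pseudocount (log2 -0.90) and with the mean of its probe sets (-0.80). Its second probe set read 54.5 and 99.7 labelled serum and 27.7 and 50.3 labelled serum-free, induced first, which are log2 differences of -0.87 and -0.86. The third gave -1.40 labelled serum and -0.34 labelled serum-free. Of its receptors, ROBO1 read 413.2 with DACH1 induced and 754.1 with DACH1 silenced labelled serum, and 517.4 and 759.8 labelled serum-free. ROBO4, the endothelial member of that family, read 18.0 against 29.5 labelled serum and 11.9 against 24.3 labelled serum-free, all near the median signal of an array.

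Among DACH1 differences with both arrays of the pair above the floor, that of SEMA3C was the largest of any member. It was 10.1-fold lower with DACH1 induced on the arrays labelled serum (57.9 against 586.3), and 1.57-fold lower on the arrays labelled serum-free (967.7 against 1518). Its second probe set gave log2 differences of -3.55 labelled serum and -1.35 labelled serum-free. The log2 difference of the brightest probe set was 2.69 greater on the arrays labelled serum-free than on those labelled serum, and this was not tested, as it takes up all 4 arrays.

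**Figure D5:**
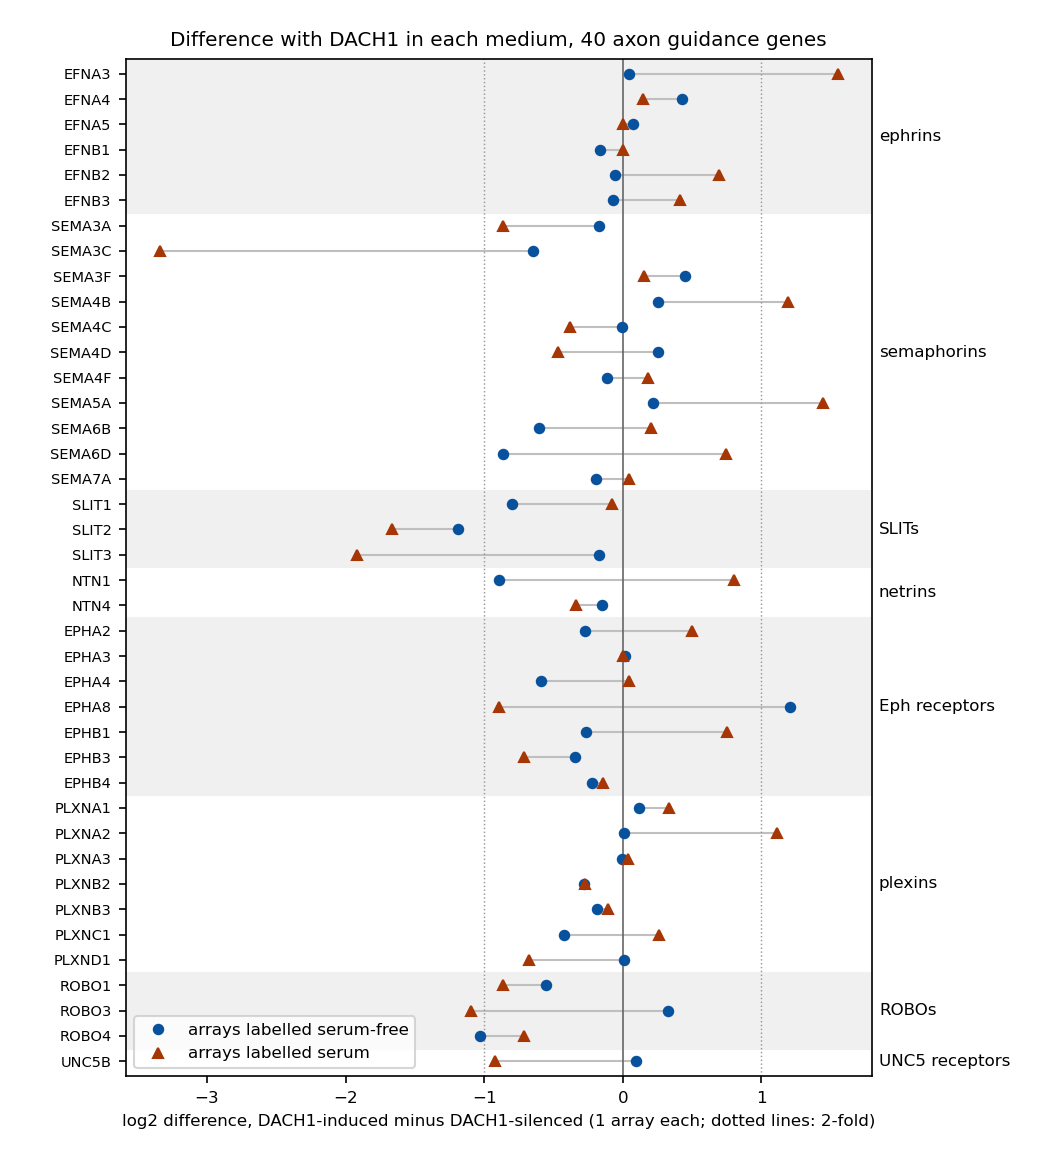
Difference in log2 signal between DACH1-induced and DACH1-silenced cells for 40 axon guidance genes, with circles for the arrays labelled serum-free and triangles for those labelled serum. Dotted lines mark 2-fold; SEMA3C labelled serum lies farthest left, at -3.34, and SLIT2 is left of the -1 line in both media.

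On the arrays labelled serum, 5 of 41 members compared were at least 2-fold higher with DACH1 induced, against 2.91% of all genes compared, and 4 were lower, against 4.77%. These are counts over single arrays with no replicate check, and 4 of the 9 had no array of the pair at 50. SEMA5A, a transmembrane semaphorin with thrombospondin repeats, read 98.5 with DACH1 induced and 36.2 with DACH1 silenced, 2.72-fold higher. Its other probe sets read 68.5 against 28.6 and 54.7 against 28.4, so all 3 lay higher. SEMA4B was 2.29-fold higher (160.3 against 70.1), and PLXNA2, a plexin of class 3 semaphorin signalling, was 2.17-fold higher (68.9 against 31.8), with 44.2 against 20.0 for its second probe set. PLXNA2 was under 2-fold with the floor as a pseudocount (log2 0.90) and with the mean of its probe sets (0.75). The dim members were SLIT3 (12.2 against 46.0, 3.77-fold lower), ROBO3 (23.2 against 49.6, 2.14-fold lower), EFNA3 (31.9 against 2.7, at least 2.93-fold higher) and UNC5D (30.0 against 7.2, at least 2.75-fold higher). The second probe set of SLIT3 gave a smaller log2 difference of -0.57.

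On the arrays labelled serum-free, 1 of 44 members was at least 2-fold higher with DACH1 induced, against 1.02% of all genes, and 2 were lower, against 2.72%, both near the background. Besides SLIT2 these were EPHA8, at least 2.31-fold higher from a signal of 25.2, and ROBO4, 2.04-fold lower from 24.3. The members that differed labelled serum read closer together here: SEMA5A read 75.1 with DACH1 induced and 64.6 with DACH1 silenced, SEMA4B read 496.3 and 415.6, PLXNA2 read 81.7 and 81.3, and SLIT3 read 40.3 and 45.4. SEMA3A and UNC5B, lower with DACH1 induced labelled serum by log2 differences of -0.87 and -0.92, differed by -0.17 and 0.10 labelled serum-free. Of the members called for medium, PLXNA3 and PLXNB3 had log2 differences with DACH1 between -0.19 and 0.04 over both media. EPHA3 read 99.8 with DACH1 induced and 98.7 with DACH1 silenced labelled serum-free, where its second probe set read 19.6 and 36.1, and labelled serum both of its arrays were under the floor. The median over the members compared was -0.16 labelled serum-free and 0.04 labelled serum, beside 0.00 and 0.01 for all genes.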

How the data were processed

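Total RNA of 4 cultures was labelled from 6 µg and read on 4 arrays. The deposited values are a MAS5 signal intensity per probe set, per the submitters' processing notes. For the software version and scaling target, the sources used here give nothing. Trimmed means (2% at each end) lay between 99.63 and 99.65, so the arrays had been scaled to nearly the same level. Of 54613 probe sets, 41091 had 1 gene in the platform annotation, and 99.9% of these took the current symbol through Entrez identifiers. No per-sample column was left unused (0).

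Each gene was read by the probe set of highest mean log2 signal among those for it alone. Signals were floored at 10.9. Genes with 2 arrays at 17.2 or more entered the limma fit (12103 genes, medium and DACH1 state as terms, Benjamini-Hochberg over all). A pair needed 1 such array. With 1 array per condition no pair has a test. In simulated data with 3000 of 12103 genes changed between media, the fit found 61.9% of 2-fold, 95.7% of 4-fold and 98.9% of 8-fold changes, with 100 calls among 9103 unchanged genes. With 200 changed it found 0 of 55, 46 of 75 and 67 of 70. The simulated noise followed the model of the fit, with variances drawn from its own prior and equal changes in both DACH1 states. Flooring of noisy signals and medium differences that depend on the DACH1 state were not simulated. These shares therefore do not give the recovery or the false calls in the real arrays. The members, lists and tests were chosen with earlier results of these data known. Signals are given for members called for medium, members past 2-fold with DACH1 and an array at 50, and others by family. The fit used limma 3.58.1 (R 4.3.3). Tables and plots used matplotlib 3.10.9, numpy 2.4.6 and pandas 2.3.3 (Python 3.11.15).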

Additional observations from a re-analysis of the deposited data

How the results depend on the processing

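Results were recomputed without the floor, with the floor raised to 50 and signals of 100 required, with the floor added as a pseudocount, without the filter, with all arrays required above the median, with probe sets averaged, without _x_at and _s_at probe sets, after quantile normalization, and with a trended variance prior. Quantile normalization moved the median medium difference of all genes to -0.03 and that of the members to 0.28. Signs were followed for the 13 members called for medium and for the DACH1 differences past 2-fold with an array at 50. None of these changed sign, and the other named differences were not followed. A change of the filter or of the variance prior leaves each difference as it is, so no sign could change there. Of the 13 members called for medium, 11 stayed called with quantile normalization, with the mean of all probe sets and with the trend, 12 with the pseudocount and 8 with no floor. The fits with a floor of 50, with every array above the median and without _x_at and _s_at probe sets held 8, 9 and 10 of the 13, all of them called. With no floor 5 members were higher for medium, against 9, and 14 and 5 passed 2-fold with DACH1 labelled serum and labelled serum-free, against 9 and 3. With a floor of 50 and signals of 100 required, fewer members were compared: 3 of 12 and 0 of 13 passed with DACH1, against 9 of 41 and 3 of 44, and 6 of 14 between media in induced cells, against 13 of 44. With every array above the median, 1 of 33 passed with DACH1 labelled serum-free and 7 of 28 between media in induced cells. With the mean of all probe sets 1 passed with DACH1 labelled serum-free. With no filter 0 were called higher and 0 lower for medium, with 19775 genes in the fit. The cause of these changes was not tested. With DACH1, neither SLIT2 labelled serum-free (log2 -0.90 and -0.80) nor PLXNA2 labelled serum (0.90 and 0.75) was past 2-fold with the pseudocount and with the mean of the probe sets. Leaving out an array leaves 1 pair for each factor and no error, as given by pair in the text. No paired analysis was possible because each condition has 1 array and no replicate numbers to block on; the fit already compares the media within each DACH1 state. Dim signals limit the members under 50.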
